A study of Mus musculus with 23 samples.

Results

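Homologous recombination repairs DNA breaks by copying the undamaged sister chromatid, and the Fanconi pathway unhooks crosslinks that join the strands of DNA and hands the resulting break to recombination. The RNA levels of 34 genes of these pathways were compared between Bach1 knockout and wild-type mouse embryonic stem cells. The genes were chosen by symbol and role: the BRCA1 and BRCA2 mediators, the paralog group of Rad51b, Rad51c, Rad51d, Xrcc2 and Xrcc3, the RAD52 and RAD54 family, the proteins that sense and resect broken ends, 3 helicases, the Fanconi core complex with its DNA anchor, the FANCD2 and FANCI pair, and the checkpoint kinases. All 34 were among the 25124 genes of the deposited RNA table, and all 34 passed the filter of at least 1 TPM, a level scaled to gene length and library, in at least 3 of 6 libraries.

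BACH1 is a transcription factor that binds heme and mostly represses its targets. The study sequenced polyA RNA of cells without it, and mapped NANOG, histone marks and tagged BACH1 on chromatin. The knockout group was the E14Tg2A line after CRISPR/Cas9 targeting of Bach1 (3 RNA libraries), and the wild-type group was E14Tg2A without that edit (3 libraries). Both were grown on gelatin in serum with leukemia inhibitory factor, and the design text calls the libraries of each line biological triplicates. The guide, the edited exon and the number of knockout clones are not stated in the labels, and a difference between these lines and an effect of losing BACH1 cannot be told apart.

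Resection of a broken end exposes single-stranded DNA, and BRCA1, PALB2 and BRCA2 prepare that strand for the search for a matching sequence. In the Fanconi pathway, the core complex attaches ubiquitin to FANCD2 and FANCI, which then mark the crosslink for cutting. Embryonic stem cells divide fast, spend most of the cycle in S phase and rely strongly on recombination at stalled forks.

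The libraries within a genotype were alike (Pearson correlation of log2(TPM + 1) of at least 0.997), against 0.915 to 0.916 between genotypes. Bach1 itself was listed at 1.69, 1.76 and 2.04 TPM in knockout cells and at 2.35, 2.50 and 2.70 TPM in wild-type cells (log2 fold change -0.31 ± 0.0717 SE, limma adjusted p = 0.00282). Since the edited position is not given, this RNA level does not check the knockout label, and the fall did not pass the threshold after median-of-ratios scaling (-0.17, limma adjusted p = 0.0545). Pluripotent stem cell markers were present in both genotypes but moved in both directions: their sum over 8 genes, most of it Pou5f1, was 2988 to 3037 TPM in knockout and 2381 to 2414 TPM in wild-type cells, and 5 rose and 3 fell. Nanog fell to 116 ± 4.73 TPM in knockout cells, against 306 ± 2.52 TPM in wild-type cells, while Utf1 averaged 491 ± 9.11 TPM in knockout and 38.6 ± 2.36 TPM in wild-type cells. The fibroblast list summed to 97.7 to 103 TPM in knockout and 253 to 258 TPM in wild-type cells over 12 genes, of which 6 were tested, 3 rose and 3 fell. Markers of fibroblasts and of primitive endoderm were mixed as well. Of the fibroblast list, Col1a1 averaged 0.518 ± 0.0684 TPM in knockout and 0.486 ± 0.0286 TPM in wild-type cells, and Col1a2, Col3a1, Dcn, Lum and S100a4 averaged under 1 TPM in both. Vim (-2.64), Fn1 (-1.73) and Pdgfrb (-1.18) fell and Tagln (3.34), Mmp2 (2.16) and Thy1 (1.66) rose on the log2 scale. Primitive endoderm markers summed to 7.68 to 8.43 TPM in knockout and 15.2 to 15.5 TPM in wild-type cells over 7 genes. Lama1 (-1.63) fell and Dab2 (1.39) rose, while Gata4, Gata6, Sox17, Foxa2 and Pdgfra were under the filter on low values. The 4 neural markers, with most of the sum from Tubb3, summed to 51.0 to 52.6 TPM in knockout and 77.7 to 80.6 TPM in wild-type cells. Nes (-0.59) and Tubb3 (-0.60) fell, while Pax6 and Sox1 were under the filter on low values. The part of these differences in the results below was not tested. In bulk RNA, fewer cells that express a gene and less RNA per cell cannot be told apart.

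Most of the recombination and Fanconi genes were lower in knockout cells. Of the 34, 30 fell (88.2%) at a Benjamini-Hochberg adjusted p under 0.05 in limma, against 54.8% of all 12196 genes tested and 56.2% of the 8118 tested genes whose mean level lay in the range of the members, from 1.57 to 29.8 TPM. None rose, in that test or at an unadjusted p under 0.05, against 28.3% of all genes, and 4 did not pass the threshold: Rad51b, Wrn, Fancb and Fancg. The median log2 fold change was -0.59 over the 34 genes and -0.20 over all genes tested. Their summed level was 235, 237 and 236 TPM in the knockout libraries, against 388, 389 and 388 TPM in the wild-type libraries, which is 60.7% of the wild-type level. The 3 knockout values lay below the 3 wild-type values for 32 genes (94.1%), against 55.4% of all genes, and the groups overlapped for Rad51b and Fancg.

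Differences were widespread between these lines, with 83.0% of all tested genes called in either direction, so the sizes of the falls are given beside the calls. Called falls of at least 0.5 on the log2 scale numbered 20 of 34 (58.8%), against 29.5% of all genes and 31.4% of the genes in that range of levels. The largest falls were not more frequent than among all genes: 3 members (8.82%) fell by at least 1 on the log2 scale, against 10.4%. Of the other called members, 10 fell by less than 0.5. Relative to the median of all genes, 30 members lay lower and 4 higher. How the libraries are scaled moves that median: after quantile normalization it was -0.03, with 41.7% of all genes and 27 members called lower, while with median-of-ratios scaling it was -0.02, with 41.2% of all genes and again 27 members called lower. Under these scalings 37.8% and 38.8% of all genes were called higher, and of the members Rad51b was, by 0.27 (limma adjusted p = 0.0111) and 0.24 (limma adjusted p = 0.0191), and Xrcc3, Rad52 and Blm no longer passed. The split of all called genes under these scalings was 4612 higher and 5087 lower, and 4737 higher and 5025 lower, against 3446 higher and 6681 lower on the TPM as deposited.

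**Figure D1:**
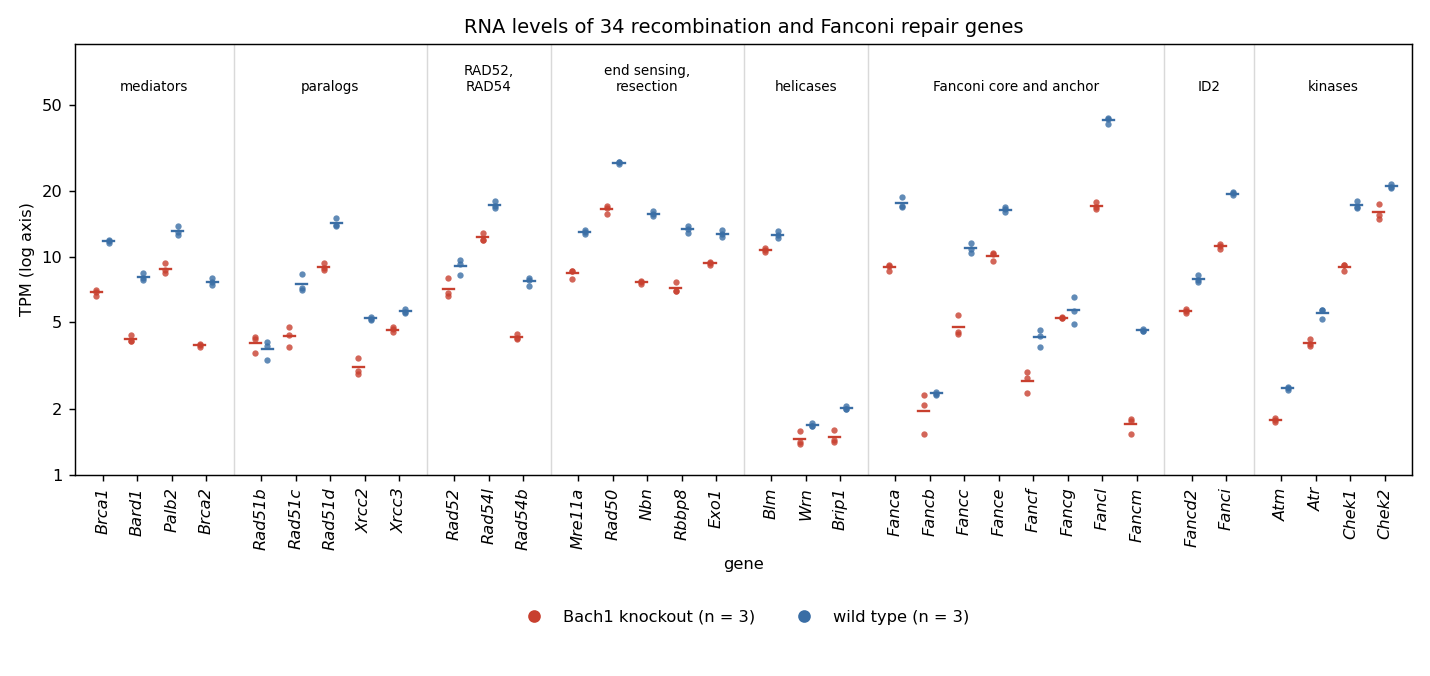
RNA level of each gene (TPM, log axis) in the 3 knockout and the 3 wild-type libraries, grouped by role; points are libraries and bars are means. The knockout values lie below the wild-type values for 32 of the 34 genes, and the groups overlap for Rad51b and Fancg.

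**Figure D2:**
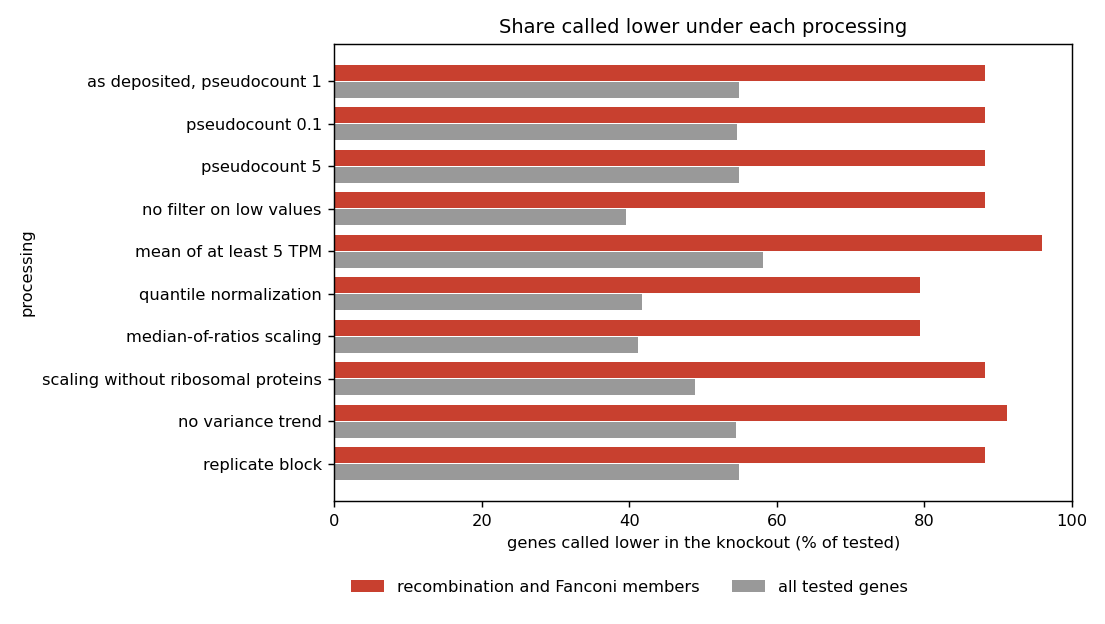
Share of tested genes called lower in knockout cells (percent) for the 34 members and for all tested genes under each processing. The share is 88.2% of the members and 54.8% of all genes on the TPM as deposited, and 79.4% and 41.7% after quantile normalization.

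Which genes were highest changed little between the genotypes (Spearman correlation of mean levels 0.94 over the 34 genes, as a description). Fancl led in both, at 17.2 ± 0.630 TPM in knockout and 42.4 ± 1.51 TPM in wild-type cells (SD, n = 3 each), followed by Rad50 and Chek2, and in knockout cells these 3 overlapped. Fancl, Rad50, Chek2 and Fanci were each separated from the next gene in all wild-type libraries, while Fanca, Rad54l, Chek1 and Fance each overlapped with the next. At the low end in wild-type cells stood Fancb, Brip1 and Wrn, and in knockout cells Atm and Fancm also lay below Fancb, with Wrn at 1.46 ± 0.113 TPM in knockout and 1.69 ± 0.0289 TPM in wild-type cells. Genes with higher wild-type levels tended to show larger falls (Spearman correlation of log2 fold change with wild-type level -0.52 over the members and -0.20 over all genes), as a description: log2(TPM + 1) compresses changes of low genes, and the wild-type values enter both measures. The 34 genes were spread over 13 chromosomes, with 6 on chromosome 11.

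Promoter sequence was read for the 25 members found in the RefSeq table of GRCm38.p6, which covers 250 bases before to 50 bases after each start. E2F factors, which switch on genes for S phase, bind sites with a core such as TTGGCGC; the variants searched beside it were TTGCCGC, then also TTCGCGC, and finally TTCCCGC. One of these letter runs, on either strand, stood in the promoters of 15 of 25 members (60.0%), against 20.2% of 9458 tested genes and 10.9% of all 27025 genes in the table. The CCAAT letters, which on the opposite strand can overlap the TTGG of the first E2F core, stood in 16 members (64.0%), against 43.4% of tested and 41.1% of all genes. TGACTCA, the core of the element that BACH1 and its competitor NRF2 share, was found for 0 of the 25 members (4.29% of tested genes and 5.95% of all genes), and the shorter site TGCTGAG in 2, those of Rad51c and Rad52 (8.00%, against 7.79% and 8.93%). The CHR letters of G2 and M phase promoters (TTTGAA and TTCGAA) were in 3 members (12.0%, against 16.0% of tested and 21.7% of all genes). These are matches of letters, not shown binding sites.

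Stretches of 250 bases before the start are shown to set promoters with and without these letters beside each other: Brca2 (chr5:150522371-150522620, plus strand), Bard1 (chr1:71102973-71103222, minus strand), Fancm (chr12:65075353-65075602, plus strand), Fancl (chr11:26386834-26387083, plus strand) and Rad51b (chr12:79297032-79297281, plus strand, the first of 2 starts). They run 5′ to 3′ on the strand of the gene, and capitals mark E2F, CHR and CCAAT letters on either strand.
Brca2: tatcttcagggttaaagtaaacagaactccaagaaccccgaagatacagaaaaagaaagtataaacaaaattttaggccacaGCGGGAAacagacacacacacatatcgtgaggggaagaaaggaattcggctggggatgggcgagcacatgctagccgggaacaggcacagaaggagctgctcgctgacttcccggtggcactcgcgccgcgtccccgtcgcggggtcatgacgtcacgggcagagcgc
Bard1: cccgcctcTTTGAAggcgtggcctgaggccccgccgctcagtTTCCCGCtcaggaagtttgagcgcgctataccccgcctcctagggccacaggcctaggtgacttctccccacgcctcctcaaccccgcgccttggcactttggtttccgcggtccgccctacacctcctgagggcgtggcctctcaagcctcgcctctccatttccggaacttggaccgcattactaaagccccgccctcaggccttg
Fancm: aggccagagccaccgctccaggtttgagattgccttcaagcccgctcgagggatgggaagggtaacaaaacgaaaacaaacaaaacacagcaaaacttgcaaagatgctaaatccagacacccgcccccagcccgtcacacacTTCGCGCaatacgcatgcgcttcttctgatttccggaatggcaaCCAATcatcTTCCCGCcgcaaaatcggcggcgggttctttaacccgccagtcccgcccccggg
Fancl: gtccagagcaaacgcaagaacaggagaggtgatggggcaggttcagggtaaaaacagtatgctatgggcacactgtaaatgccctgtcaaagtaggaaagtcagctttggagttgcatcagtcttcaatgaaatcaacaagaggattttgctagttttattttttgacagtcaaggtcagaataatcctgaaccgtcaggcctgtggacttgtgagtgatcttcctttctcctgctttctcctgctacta
Rad51b: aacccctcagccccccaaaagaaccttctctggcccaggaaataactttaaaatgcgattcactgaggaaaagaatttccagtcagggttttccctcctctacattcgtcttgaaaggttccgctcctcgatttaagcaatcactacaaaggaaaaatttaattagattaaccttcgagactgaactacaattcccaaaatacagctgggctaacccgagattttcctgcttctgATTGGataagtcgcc
Fancm, one of the strongest falls, holds E2F letters starting 107 and 54 bases before its start with CCAAT 63 bases before it, and Brca2 and Bard1 hold E2F letters 168 and 208 bases before theirs. Fancl, whose fall was the largest of the 34 on log2(TPM + 1) while Fancm was lower as a share of wild type, holds none of the marked letters in this stretch, and Rad51b, which did not pass the test, holds CCAAT 15 bases before its start, and its CHR letters lie outside the stretch shown. Members with and without these letters had similar medians: the 15 with E2F letters had a median log2 fold change of -0.51 with 13 called lower, the 10 without had -0.55 with 9 called lower, and the 9 with no promoter in the table had -0.62 with 8 called lower. The shares of members called lower were thus 86.7%, 90.0% and 88.9%. Over all tested genes the median was -0.22 for the 1906 with E2F letters, with 57.9% called lower. For the 7552 without, it was -0.20, with 55.1% called lower.

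All 4 mediators fell, with a median of -0.76 on the log2 scale. Brca1, the tumour suppressor that forms a ubiquitin ligase with BARD1 and directs ends to recombination, had 6.64, 7.05 and 6.91 TPM in knockout cells, against 12.0, 11.6 and 11.8 TPM in wild-type cells (log2 fold change -0.71 ± 0.0440 SE, limma adjusted p = 4.94e-07). Bard1 had 4.09, 4.13 and 4.36 TPM in knockout cells, against 8.02, 8.41 and 7.82 TPM in wild-type cells (-0.81 ± 0.0519, limma adjusted p = 6.05e-07). Both partners were thus at 58.1% and 51.9% of their wild-type means, with no overlap between the groups. Brca2, which acts on resected single-stranded DNA, had 3.97, 3.84 and 3.94 TPM in knockout cells, against 7.45, 8.04 and 7.65 TPM in wild-type cells (-0.83 ± 0.0510, limma adjusted p = 4.63e-07). Palb2, the bridge between BRCA1 and BRCA2, had 8.73, 9.36 and 8.44 TPM in knockout cells, against 13.0, 13.8 and 12.6 TPM in wild-type cells (-0.52 ± 0.0533, limma adjusted p = 1.43e-05). Palb2 kept the most of the 4, at 67.3% of its wild-type mean, and Brca2 the least, at 50.8%.

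Of the 5 paralogs, which form 2 complexes that act on single-stranded DNA, 4 fell. Rad51c, the paralog present in both complexes, had 4.77, 4.39 and 3.85 TPM in knockout cells, against 8.35, 7.20 and 7.06 TPM in wild-type cells (-0.68 ± 0.0820, limma adjusted p = 4.65e-05). Rad51d had 8.67, 9.41 and 8.89 TPM in knockout cells, against 14.0, 13.8 and 15.1 TPM in wild-type cells (-0.62 ± 0.0510, limma adjusted p = 3.33e-06). Xrcc2, the partner of RAD51D, had 2.99, 3.44 and 2.89 TPM in knockout cells, against 5.31, 5.15 and 5.21 TPM in wild-type cells (-0.60 ± 0.0640, limma adjusted p = 1.90e-05). These 3 genes lay between 57.5% and 62.8% of their wild-type means, and Xrcc3, the partner of RAD51C in the smaller complex, lay at 82.3% (-0.23, limma adjusted p = 0.00187). Rad51b stood apart: it had 4.19, 3.62 and 4.29 TPM in knockout cells, against 4.07, 3.37 and 3.90 TPM in wild-type cells (0.08 ± 0.0786, limma adjusted p = 0.389). Its groups overlapped, although it sits in one complex with RAD51C, RAD51D and XRCC2.

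The RAD52 and RAD54 family fell in all 3 genes. Rad54b, a motor protein that moves along DNA and is the paralog of Rad54l, had 4.23, 4.44 and 4.18 TPM in knockout cells, against 7.87, 7.97 and 7.33 TPM in wild-type cells (-0.72 ± 0.0532, limma adjusted p = 1.50e-06). Rad54l averaged 12.3 ± 0.549 TPM in knockout and 17.3 ± 0.756 TPM in wild-type cells (-0.47, limma adjusted p = 1.53e-05). Rad52, which anneals single strands, averaged 7.14 ± 0.720 TPM in knockout and 9.09 ± 0.743 TPM in wild-type cells (-0.31, limma adjusted p = 0.00454), a call lost under quantile normalization and median-of-ratios scaling.

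All 5 genes of end sensing and resection fell. Nbn, Mre11a and Rad50 encode the complex that first binds a broken end. Nbn had 7.50, 7.71 and 7.74 TPM in knockout cells, against 15.4, 16.2 and 15.8 TPM in wild-type cells (-0.96 ± 0.0415, limma adjusted p = 4.55e-08). Rad50 had 17.2, 16.8 and 15.7 TPM in knockout cells, against 26.7, 27.2 and 27.3 TPM in wild-type cells (-0.68 ± 0.0409, limma adjusted p = 4.00e-07). Mre11a, the nuclease of the complex, had 8.66, 8.59 and 7.95 TPM in knockout cells, against 12.8, 13.3 and 13.0 TPM in wild-type cells (-0.58 ± 0.0467, limma adjusted p = 2.88e-06). Of the 3 subunits, the Nbn transcript was reduced most, to 48.4% of its wild-type mean, against 61.2% for Rad50 and 64.6% for Mre11a. Rbbp8, which encodes the CtIP protein that starts resection with this complex, had 6.96, 6.97 and 7.69 TPM in knockout cells, against 13.4, 13.8 and 12.9 TPM in wild-type cells (-0.81 ± 0.0519, limma adjusted p = 6.00e-07). Exo1, an exonuclease that extends resection, averaged 9.36 ± 0.126 TPM in knockout and 12.8 ± 0.488 TPM in wild-type cells (-0.42, limma adjusted p = 1.71e-05).

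The 3 helicases had the smallest median change of the 8 roles, -0.21, close to the median of all genes. Blm, which dissolves crossed strands at the end of recombination, averaged 10.8 ± 0.226 TPM in knockout and 12.6 ± 0.475 TPM in wild-type cells (-0.21, limma adjusted p = 0.00157), and its difference was 0.01 after quantile normalization (limma adjusted p = 0.855). Wrn, another helicase of the same family, did not pass (-0.13, limma adjusted p = 0.0816), although its groups did not overlap. Brip1, which binds BRCA1 and is also the Fanconi gene known as FANCJ, averaged 1.49 ± 0.106 TPM in knockout and 2.02 ± 0.0399 TPM in wild-type cells (-0.28, limma adjusted p = 0.00205). Brip1 carries an older alias, BACH1, for BRCA1-associated C-terminal helicase, and is a different gene from the Bach1 that was edited.

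The Fanconi core complex and its anchor held the largest falls and also 2 of the 4 genes that did not pass. Fancl, the ubiquitin ligase subunit that modifies FANCD2 and FANCI, had 16.6, 17.0 and 17.9 TPM in knockout cells, against 40.7, 42.8 and 43.6 TPM in wild-type cells (-1.25 ± 0.0402, limma adjusted p = 6.91e-09). Fancm, the DNA translocase that anchors the complex, had 1.80, 1.53 and 1.77 TPM in knockout cells, against 4.58, 4.56 and 4.68 TPM in wild-type cells (-1.06 ± 0.0619, limma adjusted p = 3.26e-07). Fancc had 4.50, 4.42 and 5.40 TPM in knockout cells, against 11.6, 10.4 and 10.9 TPM in wild-type cells (-1.06 ± 0.0726, limma adjusted p = 9.41e-07). The ligase, the anchor and Fancc thus lay at 40.5%, 36.9% and 43.4% of their wild-type means, the lowest shares of all 34 genes. Fanca, a subunit that binds FANCG, had 9.09, 8.62 and 9.14 TPM in knockout cells, against 18.9, 17.2 and 16.9 TPM in wild-type cells (-0.91 ± 0.0511, limma adjusted p = 2.50e-07). Fance, which bridges the complex to FANCD2, had 10.4, 9.54 and 10.3 TPM in knockout cells, against 16.0, 17.0 and 16.6 TPM in wild-type cells (-0.66 ± 0.0464, limma adjusted p = 1.08e-06). Fancf, an adaptor subunit, had 2.38, 2.95 and 2.78 TPM in knockout cells, against 4.32, 4.61 and 3.87 TPM in wild-type cells (-0.51 ± 0.0794, limma adjusted p = 2.60e-04). For all 6 the highest knockout library was below the lowest wild-type library.

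Fancg and Fancb, the other core subunits, were not called. Fancg had 5.25, 5.28 and 5.24 TPM in knockout cells, against 6.54, 5.66 and 4.91 TPM in wild-type cells (-0.09 ± 0.0836, limma adjusted p = 0.324). The wild-type libraries spanned the knockout values. Without wild-type replicate 3, the lowest of them, Fancg was called lower (-0.18, limma adjusted p = 0.0413). Without wild-type replicate 1, the highest of them, its difference was -0.00 (limma adjusted p = 0.96). Both quantile and median-of-ratios scaling gave a positive difference. Fancb, which works with FANCL, had 1.53, 2.08 and 2.31 TPM in knockout cells, against 2.34, 2.33 and 2.40 TPM in wild-type cells (-0.18 ± 0.0963, limma adjusted p = 0.103). All 3 knockout values were lower, but knockout replicate 3 lay close to the wild-type values. Without that library Fancb was called lower (-0.27, limma adjusted p = 0.029). Without knockout replicate 1, the lowest, its difference shrank to -0.07 (limma adjusted p = 0.356).

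Downstream of the core complex, both genes of its substrate pair fell, by unequal amounts. Fancd2 had 5.74, 5.63 and 5.50 TPM in knockout cells, against 7.63, 7.80 and 8.23 TPM in wild-type cells (-0.42 ± 0.0495, limma adjusted p = 3.64e-05). Fanci had 11.5, 10.9 and 11.2 TPM in knockout cells, against 19.8, 19.6 and 19.2 TPM in wild-type cells (-0.75 ± 0.0377, limma adjusted p = 1.17e-07). The groups were apart for both, at 71.3% of the wild-type mean for Fancd2 and 57.3% for Fanci.

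Among the checkpoint kinases, which signal breaks (ATM, then CHK2) and single-stranded DNA at forks (ATR, then CHK1), Chek1 stood out. Chek1 had 9.15, 9.20 and 8.61 TPM in knockout cells, against 16.8, 16.9 and 18.0 TPM in wild-type cells (-0.87 ± 0.0459, limma adjusted p = 1.61e-07), which is 52.0% of the wild-type mean. Atm had 1.78, 1.82 and 1.75 TPM in knockout cells, against 2.46, 2.49 and 2.54 TPM in wild-type cells (-0.33 ± 0.0552, limma adjusted p = 4.12e-04). Atr had 3.88, 4.00 and 4.18 TPM in knockout cells, against 5.18, 5.69 and 5.71 TPM in wild-type cells (-0.38 ± 0.0575, limma adjusted p = 2.23e-04). Both upstream kinases had smaller falls than Chek1, at 71.4% and 72.8% of their wild-type means, and Chek2 averaged 16.0 ± 1.27 TPM in knockout and 21.1 ± 0.531 TPM in wild-type cells (-0.38, limma adjusted p = 1.53e-04).

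**Figure D3:**
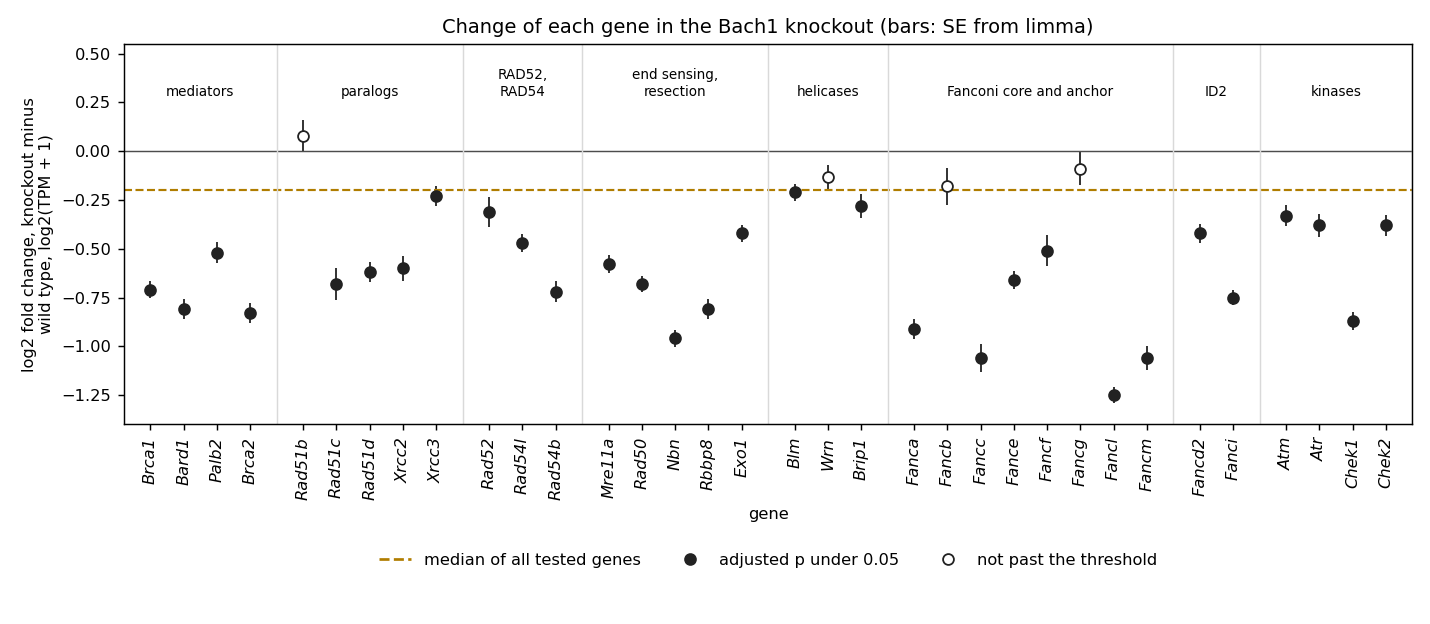
log2 fold change of each gene, knockout minus wild type on log2(TPM + 1), with standard errors from limma; filled points passed an adjusted p under 0.05 and the dashed line is the median of all tested genes (-0.20). The largest falls are Fancl at -1.25 and Fancc and Fancm at -1.06, while Rad51b, Wrn, Fancb and Fancg are open points; Rad51b is called higher, and the differences of Fancg turn positive, under quantile and median-of-ratios scaling.

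To compare partners of one complex or pathway step, 14 ratios between partner genes were computed within each library, where scaling between libraries cancels. In 11 of 14 the knockout and wild-type ratios did not overlap. Of all 12196 tested genes taken singly, 6758 had the 3 knockout values all below the wild-type values and 3518 all above. Ratios of other gene pairs were not computed, so the count of 11 is not read as particular to partners. With 3 libraries against 3, the exact two-sided permutation test cannot give less than 0.1 (0.127 adjusted over the 14 ratios), so none could pass 0.05. Fanca over Fancg was 1.73, 1.63 and 1.74 in knockout cells, against 2.88, 3.05 and 3.44 in wild-type cells (log2 difference -0.87 ± 0.0813 SE, exact permutation p = 0.1). Rad51b over Rad51c was 0.879, 0.825 and 1.11 in knockout cells, against 0.487, 0.467 and 0.552 in wild-type cells (0.89 ± 0.150, exact permutation p = 0.1). In both of these pairs 1 gene fell and the other was not called. Smaller shifts stood between partners that both fell: Rad51c over Xrcc3 (-0.52), Atr over Chek1 (0.49), Brca2 over Palb2 (-0.41), Rad54b over Rad54l (-0.35), Nbn over Rad50 (-0.34), Brip1 over Brca1 (0.34) and Fancd2 over Fanci (0.32). Smaller still were 2 others: Mre11a over Rad50 was 0.504, 0.510 and 0.507 in knockout cells, against 0.479, 0.488 and 0.476 in wild-type cells (0.08 ± 0.0119), and Brca1 over Bard1 differed by 0.16 ± 0.0508. Rad51d over Xrcc2 (0.08 ± 0.0649, exact permutation p = 0.3), Atm over Chek2 (-0.09 ± 0.0621, exact permutation p = 0.3) and Blm over Wrn (-0.02 ± 0.0623, exact permutation p = 0.8) overlapped between the groups.

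**Figure D4:**
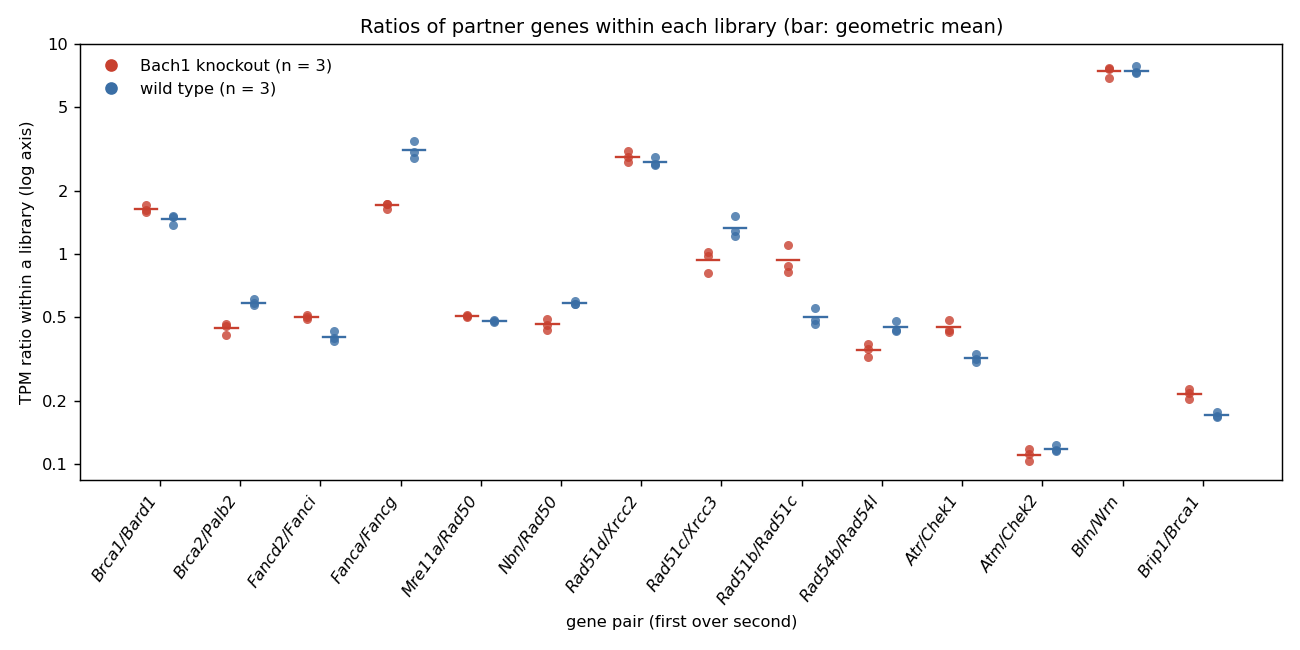
TPM ratio of partner genes within each library (log axis) for 14 pairs in 3 knockout and 3 wild-type libraries; points are libraries and bars are geometric means. The groups are farthest apart for Fanca over Fancg and Rad51b over Rad51c and overlap for Rad51d over Xrcc2, Atm over Chek2 and Blm over Wrn.

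The following 4 members were in the authors' deposited table of genes lower in knockout cells: Fancl at a log2 fold change of -1.33 (p = 6.81e-06), Fancm at -1.37 (p = 4.66e-05), Fancc at -1.28 (p = 2.83e-04) and Nbn at -1.04 (p = 2.32e-06), where the p-values are those of the authors' deposited table and their adjustment is not stated. That is 11.8% of the members, against 15.1% of the genes tested here. No member was among the genes higher in knockout cells in the authors' deposited table (9.65% of the genes tested here). The members and related repair genes listed there all changed by 1.02 or more on the authors' log2 scale. The calls made here had no fold threshold, so the counts do not share a cut-off.

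Other DNA repair genes were also mostly lower on the TPM as deposited. Of 118 tested genes of 6 related lists, 87 fell (73.7%), against 54.8% of all tested genes, 16 rose, against 28.3%, and 15 did not pass, with a median of -0.33. Quantile normalization left 64 of the 118 called lower, against 41.7% of all tested genes. Median-of-ratios scaling left 63, against 41.2%. Among 41 other recombination and Fanconi genes, 31 fell (75.6%) and 6 rose, with a median of -0.31. Quantile normalization left 18 of the 41 called lower, near the 41.7% of all tested genes. Median-of-ratios scaling left 19, near the 41.2% of all tested genes. Fignl1, an ATPase that acts in recombination, averaged 14.5 ± 1.32 TPM in knockout and 51.8 ± 1.07 TPM in wild-type cells (-1.77, limma adjusted p = 7.19e-09), a larger fall than that of any of the 34. Dna2, a resection nuclease, averaged 4.25 ± 0.375 TPM in knockout and 10.7 ± 0.575 TPM in wild-type cells (-1.15, limma adjusted p = 2.94e-07). Dmc1, the meiotic recombinase, went the other way, with 3.31 ± 0.455 TPM in knockout and 1.19 ± 0.0764 TPM in wild-type cells (0.98, limma adjusted p = 4.10e-06).

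The remaining repair lists differed in their counts, read against 54.8% of all tested genes lower and 28.3% higher. All 7 mismatch repair genes fell (100%), with a median of -0.82. Quantile normalization and median-of-ratios scaling each left 5 of the 7 called lower, against 41.7% and 41.2% of all tested genes. The falls included Mlh3, at 1.49 ± 0.139 TPM in knockout and 5.05 ± 0.232 TPM in wild-type cells (-1.28, limma adjusted p = 1.26e-07), and Pms1 (-0.85). In base excision repair 14 of 19 genes fell (73.7%, median -0.51), among them the glycosylases Smug1 (-0.99), Neil2 (-0.93) and Neil1 (-0.81). Of 20 genes of damage signalling and RPA, 15 fell (75.0%) and 3 rose (median -0.35). Hus1, part of the clamp that activates ATR, fell by 1.25, and Rpa3, a subunit of the protein that coats single strands, fell by 0.97 on the log2 scale, while its other subunits Rpa1 (0.28) and Rpa2 (0.20) rose. End joining, the competing route of break repair, had 10 of 14 genes lower (71.4%) and 2 higher (median -0.37). Polm, a gap-filling polymerase, fell by 1.22, while Nhej1 (0.79) and Paxx (0.75), which stabilise the ligase complex at ends, rose. In nucleotide excision repair 10 of 17 fell (58.8%, near the 54.8% of all tested genes) and 5 rose, with the median of all genes (-0.20) and 6 called lower after quantile or median-of-ratios scaling. Its damage-binding protein Xpa averaged 2.22 ± 0.355 TPM in knockout and 9.50 ± 1.35 TPM in wild-type cells (-1.70, limma adjusted p = 5.54e-07).

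Many recombination genes are transcribed with the S phase programme, so cell cycle genes are set beside them. Of 22 S phase and E2F target genes, 19 fell (86.4%) and 3 rose (median -0.48), and of 15 G2 and M phase genes 7 fell (46.7%) and 5 rose (median -0.05), against 54.8% of all tested genes lower and 28.3% higher. E2f1, a factor of that programme, had 10.1, 10.5 and 11.6 TPM in knockout cells, against 34.4, 34.4 and 34.5 TPM in wild-type cells (-1.59 ± 0.0490, limma adjusted p = 5.42e-09). Uhrf1 (-1.70), which guides maintenance of DNA methylation, and Rrm2 (-1.20), a subunit of ribonucleotide reductase, fell as well, while the cyclin Ccne1 (0.69) and the transcription factor Mybl2 (0.52) rose. Ccnb1, the mitotic cyclin, averaged 59.6 ± 0.738 TPM in knockout and 95.6 ± 1.22 TPM in wild-type cells (-0.67, limma adjusted p = 1.50e-08). Cdc20 (0.48), an activator of the mitotic ubiquitin ligase, and Kif11 (0.48), a spindle motor, rose. The part of E2f1 or of the cell cycle in the falls of the recombination genes was not tested.

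Of the p53 axis, which acts downstream of ATM and ATR, Trp53 had 288, 283 and 289 TPM in knockout cells, against 173 to 181 TPM in the 3 wild-type libraries (0.69 ± 0.0230, limma adjusted p = 8.65e-09). Cdkn1a, the p53 target that encodes the cell cycle inhibitor p21, had 30.6, 30.0 and 31.1 TPM in knockout cells, against 75.8, 73.2 and 72.8 TPM in wild-type cells (-1.25 ± 0.0295, limma adjusted p = 1.23e-09). The transcript of the factor was thus higher and that of its target lower in knockout cells, with no overlap in either.

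**Figure D5:**
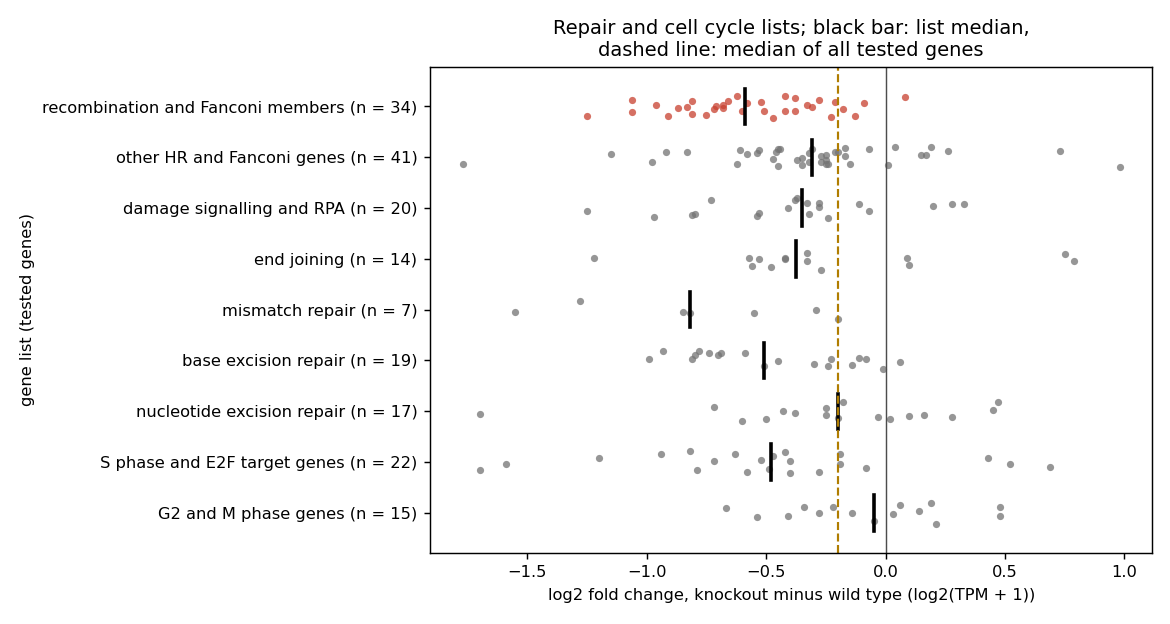
log2 fold change, knockout minus wild type, of each tested gene of the 34 members and of 8 related lists; points are genes, black bars are list medians and the dashed line is the median of all tested genes (-0.20). The members have a median of -0.59, mismatch repair of -0.82, and the G2 and M phase genes of -0.05.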

How the data were processed

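PolyA RNA of 3 Bach1 knockout and 3 wild-type libraries was analysed. The authors deposited TPM (transcript levels scaled to length and library total) for 25124 genes with 1 RefSeq transcript each. Per the submitters' processing notes, mm9, Trim Galore, HISAT2, HOMER and limma were used; the role of each, the counting and its strand setting are not stated there, and overlapping and antisense transcripts cannot be told apart. TPM keep no depth, which is unknown, and the listed values sum to 604964 to 606200 per library. The authors' deposited lists of higher and lower genes hold log2 ratios with p-values whose adjustment is not stated. For 3 members (Rad52, Fance and Rbbp8) the transcript listed by the authors has a noncoding accession. The same holds for Hus1 of the related lists.

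Values were taken to log2(TPM + 1). The 12196 genes that reached 1 TPM in 3 or more of the 6 libraries entered the test of knockout against wild type in limma 3.58.1 in R 4.3.3 (lmFit, eBayes with trend) with Benjamini-Hochberg adjustment over all genes tested and no fold threshold. Fold changes on this scale understate those of low genes. The fit was also tested on simulated data. Far fewer genes were changed there than were called here, so that run does not measure the error rate of these calls. P-values measure the spread between these libraries. Partner ratios used TPM without a pseudocount and exact permutation tests written in Python 3.11.15. Spearman correlations came from scipy 1.17.1. Replicate numbers are shared between the groups, but same-numbered libraries did not deviate together, so they were not paired. Alternatives were other pseudocounts (0.1 and 5), filters, scalings, no variance trend, a replicate block and leaving out each library. Promoter letters came from RefSeq (GRCm38.p6); a gene with several starts counted if any window matched.

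The members and lists were chosen with earlier results of these data known. Named in any case were Bach1, E2f1, Trp53 and Cdkn1a; library values were given for each called member with a change of at least 0.5 on the log2 scale, and for Brca1, Brca2, Atm, Atr, Fancd2 and Fanci; of each related list, up to 3 called genes with the largest change among those whose groups did not overlap. Library values of Rad51b, Fancb and Fancg, the marker genes, and Rpa1, Rpa2, Ccne1, Mybl2, Cdc20 and Kif11 were added after they were seen. The levels of some genes of the related lists are not reported here. The chromatin peak lists were not used here.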

Additional observations from a re-analysis of the deposited data

How the results depend on the processing

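Over the alternatives run, 24 to 31 members were called lower; the lowest number comes from the filter at a mean of 5 TPM, which 25 members passed. That filter left 6542 called genes in all, 4430 lower (58.1% of the genes tested) and 2112 higher. After quantile normalization and median-of-ratios scaling 27 members were lower and 1 was higher, Rad51b. Under quantile normalization the differences of Blm (0.01) and Fancg (0.13) turned positive, and under median-of-ratios scaling those of Wrn (0.00) and Fancg (0.09); none of these 4 values passed the threshold, and the cause was not tested. Without a variance trend Wrn was called lower (limma adjusted p = 0.0271). Leaving out 1 library at a time gave 30 or 31 members lower, against 53.2% to 53.6% of all tested genes. Called in either direction were 9806 to 9883 genes in these runs. Replicate numbers are shared by both groups, and the deviations of same-numbered libraries correlated at -0.003, 0.070 and -0.001. The fit with a replicate block called 30 members lower, against 54.9% of all tested genes, and 10149 genes in either direction. Ratios of TPM + 1 left 12 of 14 partner pairs apart. Peaks at the start sites of the members, with both of their alternatives, were not run, since start sites on mm9 were not used here. TPM give no depth, so counting error at low genes such as Wrn, Brip1 and Fancb is unknown.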
